A study of Homo sapiens with 2 samples.

Results

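The miR-183 cluster comprises 3 neighbouring hairpins, MIR183, MIR96 and MIR182. It was examined in A549 cells, an epithelial line from a human lung adenocarcinoma. Its members were chosen by name in a table of small RNA counts: hsa-miR-183-5p, hsa-miR-183-3p, hsa-miR-96-5p, hsa-miR-182-5p and hsa-miR-182-3p, written below without the species prefix. All 5 names were listed, among 859 mature miRNAs. The sixth arm, miR-96-3p, was listed as well. It is not among the 5 chosen names, but it was added wherever the reads of a hairpin or of the whole cluster were summed.

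Cells were grown in medium with 10% fetal calf serum and then incubated for 24 h at 20% oxygen (normoxia) or at 1.2% oxygen (hypoxia). A single small RNA library was made for each, so there is 1 per condition. Both groups are the same cell line, and oxygen is the only difference the labels give. The values therefore have no replicate check, and a difference between the conditions cannot be told apart from a difference between 2 cultures or 2 library preparations. The table held 6449337 counts in normoxia and 13115226 in hypoxia, of which 4514818 and 8600160 fell on mature miRNAs. All levels below are CPM, the count scaled to a total of 1000000 mature miRNA counts in each library, with exact Clopper-Pearson 95% intervals in parentheses. These intervals cover counting error only, since there is 1 library per condition. They treat each read as independent. The libraries were amplified by PCR without molecular identifiers, so the intervals may be too narrow even for counting error.

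A hairpin precursor is cut by Drosha and Dicer into a duplex, and either strand, the 5p or the 3p arm, can be loaded into Argonaute. The seed, bases 2 to 8 from the 5′-end, directs the loaded strand to its target mRNAs. The hairpins of the cluster are known to be made from a common primary transcript and are best known from sensory cells of the retina and the inner ear, where changes in the seed of miR-96 cause hereditary hearing loss. The cluster is also known to be elevated in many carcinomas, and miR-96 and miR-182 are known repressors of the transcription factor FOXO1.

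The mature sequences are shown because the 3 5p arms resemble each other while each has its own seed. They are RefSeq sequences, matched by name for all 6 arms of the cluster, and the seed is in capitals. miR-1271-5p, from another chromosome, is added because it carries the seed of miR-96-5p.
miR-183-5p: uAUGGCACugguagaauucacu
miR-96-5p: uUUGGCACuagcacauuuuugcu
miR-182-5p: uUUGGCAAugguagaacucacacu
miR-183-3p: gUGAAUUAccgaagggccauaa
miR-96-3p: aAUCAUGUgcagugccaauaug
miR-182-3p: uGGUUCUAgacuugccaacua
miR-1271-5p: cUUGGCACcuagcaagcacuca

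Positions were counted from 1 at the 5′-end, and each substitution is written with the base of the first-named miRNA first. Between miR-183-5p and miR-96-5p, the seeds differed by A2U. Between miR-96-5p and miR-182-5p, they differed by C8A, and between miR-183-5p and miR-182-5p by both A2U and C8A. The perfect complement of the seed is GUGCCAU for miR-183-5p, GUGCCAA for miR-96-5p and UUGCCAA for miR-182-5p.

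Beyond the seed, the resemblance followed another pairing. miR-183-5p and miR-182-5p shared a run of 8 bases, UGGUAGAA, at position 9 of both, which miR-96-5p lacks. The edit distance (substitutions, insertions and deletions) was 5 between miR-183-5p and miR-182-5p, 8 between miR-183-5p and miR-96-5p, and 10 between miR-96-5p and miR-182-5p. Whether reads of one arm were counted on another was not tested. Among the 2370 mature human miRNAs of RefSeq, miR-1271-5p was the only other one with the seed of miR-96-5p, and no other one had the seed of miR-183-5p or miR-182-5p. All 3 5p arms start with U, as do 36.8% of these RefSeq miRNAs.

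In the hg19 coordinates of the table, the mature arms lie on chromosome 7. miR-182-5p spans 129410287 to 129410310, miR-96-5p 129414579 to 129414601 and miR-183-5p 129414807 to 129414828. In GRCh38, GENCODE places MIR182 at 129770383 to 129770492, MIR96 at 129774692 to 129774769 and MIR183 at 129774905 to 129775014, all on the minus strand. No other annotated gene overlaps any of the 3 hairpins, so they are intergenic in this annotation. Along the direction of transcription MIR183 comes first and lies 135 bases from MIR96, and MIR182 follows after 4199 bases. The span of the cluster is 4632 bases. The nearest annotated gene on either side is NRF1, a protein-coding gene on the plus strand, 13300 bases away, and the lincRNA AC084864.1 on the minus strand, 8355 bases away.

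The cluster was expressed at a moderate level in A549, and its summed level was nearly the same in both libraries when scaled to total mature counts. The 6 arms together received 6192 counts in normoxia and 11631 in hypoxia. This was 0.137% of mature miRNA counts in normoxia (0.134% to 0.141%) and 0.135% in hypoxia (0.133% to 0.138%). The log2 ratio of hypoxia over normoxia for the sum was -0.02 (exact conditional binomial interval -0.06 to 0.02). Under the TMM scaling of edgeR, which compares the bulk of miRNAs rather than their total, the same ratio was -0.13. Over the 6 scalings named below, it ran from -0.22 to -0.02, with total mature counts at the upper end.

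The 5p arms carried nearly all of these reads. miR-182-5p was the most abundant arm, with 2416 counts in normoxia and 4736 in hypoxia. Its level was 535 CPM in normoxia (514 to 557) and 551 CPM in hypoxia (535 to 567). It ranked 73rd and 74th among the mature miRNAs of the respective library.

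miR-183-5p, a known repressor of the membrane linker ezrin, followed with 2125 and 4504 counts. Its level was 471 CPM in normoxia (451 to 491) and 524 CPM in hypoxia (509 to 539). miR-96-5p came next, with 1470 and 2044 counts. Its level was 326 CPM in normoxia (309 to 343) and 238 CPM in hypoxia (227 to 248), so that the intervals of the libraries did not overlap.

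The 3p arms were far lower. miR-183-3p had 99 and 178 counts, or 21.9 CPM (17.8 to 26.7) and 20.7 CPM (17.8 to 24.0). For miR-96-3p there were 61 and 114 counts, or 13.5 CPM (10.3 to 17.4) and 13.3 CPM (10.9 to 15.9). miR-182-3p was the lowest, with 21 and 55 counts, or 4.65 CPM (2.88 to 7.11) and 6.40 CPM (4.82 to 8.32). The order of the 6 arms was thus the same in both libraries, and for each 3p arm the intervals of the libraries overlapped. The hairpin with the most abundant 5p arm, MIR182, had the least abundant 3p arm.

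**Figure D1:**
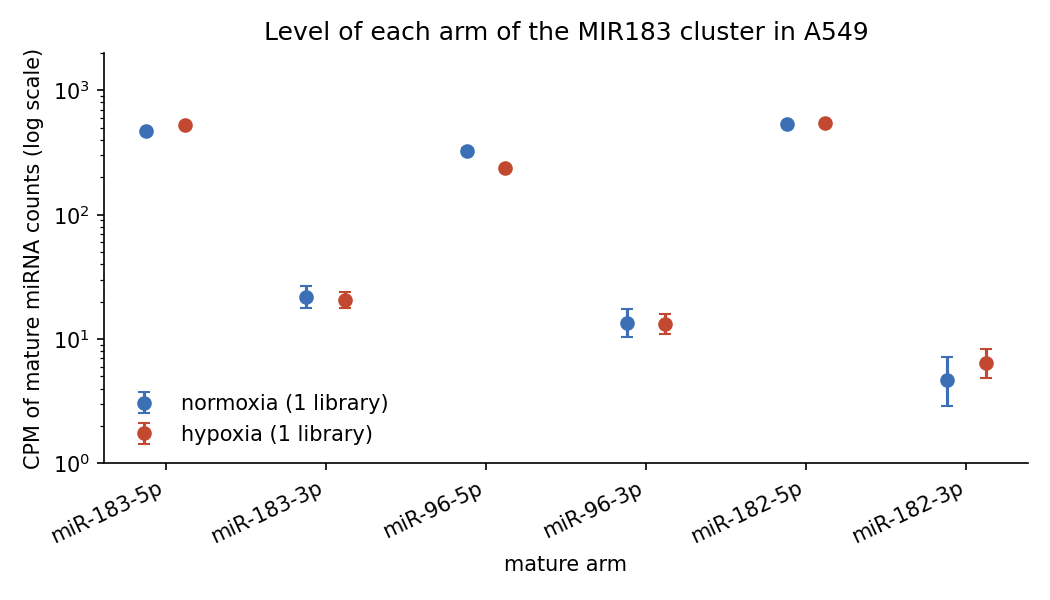
Level of each arm in CPM of mature miRNA counts (log axis) in the normoxia and hypoxia libraries, with points for the single library of each condition and bars for exact 95% counting intervals (smaller than the points for the 5p arms). The 5p arms lie between 238 and 551 CPM and the 3p arms between 4.65 and 21.9 CPM, and miR-96-5p shows the widest gap between the libraries among the 5p arms.

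Within a library, the intervals of neighbouring arms in this order did not overlap, except for miR-182-5p and miR-183-5p in hypoxia. miR-182-5p had 1.14 counts per count of miR-183-5p in normoxia (1.07 to 1.21) and 1.05 in hypoxia (1.01 to 1.10). Both intervals exclude 1, but no replicate shows whether a second library would give this order. The yield of each sequence in ligation and PCR was not calibrated, so ratios between different miRNAs are ratios of reads.

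The shares of the hairpins within the cluster do not depend on how the libraries are scaled. In normoxia, MIR182 gave 39.4% of the reads of the cluster (38.1% to 40.6%), MIR183 35.9% (34.7% to 37.1%) and MIR96 24.7% (23.7% to 25.8%). In hypoxia, the share of MIR96 was lower, at 18.6% (17.9% to 19.3%). MIR183 was at 40.3% there (39.4% to 41.2%) and MIR182 at 41.2% (40.3% to 42.1%). The intervals of the libraries did not overlap for MIR96 and MIR183 and overlapped for MIR182.

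**Figure D2:**
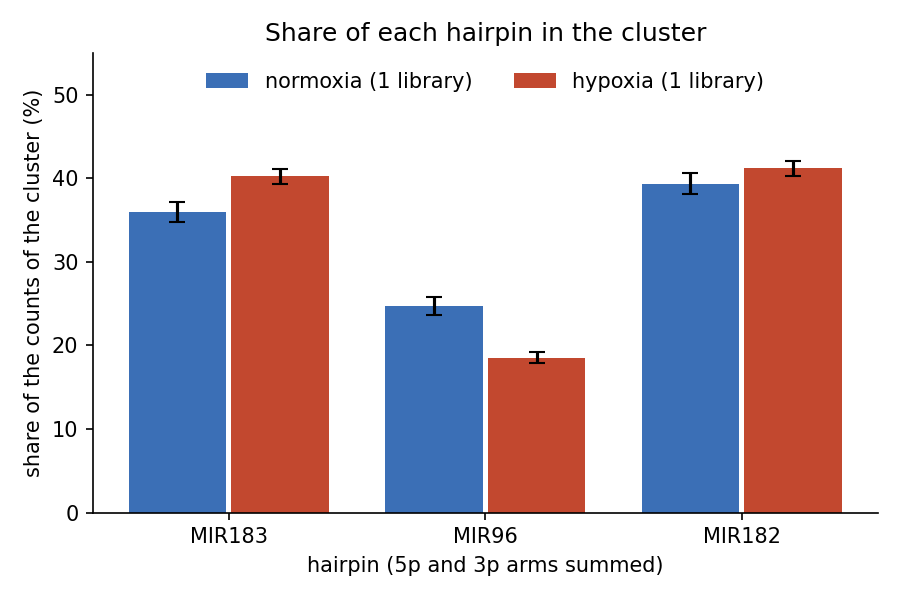
Share of the counts of the cluster taken by each hairpin (5p and 3p arms summed) in the normoxia and hypoxia libraries, in percent, with exact 95% counting intervals as bars. MIR96 takes 24.7% in normoxia and 18.6% in hypoxia, while MIR183 and MIR182 take larger shares in hypoxia.

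The 5p arms hold nearly all of these counts, so ratios between single arms restate the same shift. There were 1.45 counts of miR-183-5p per count of miR-96-5p in normoxia (1.35 to 1.55) and 2.20 in hypoxia (2.09 to 2.32). This is a change of 0.61 on the log2 scale (standard error 0.062 from counting). For miR-182-5p over miR-96-5p, the ratio was 1.64 in normoxia (1.54 to 1.75) and 2.32 in hypoxia (2.20 to 2.44), a change of 0.50 (standard error 0.061). miR-182-5p over miR-183-5p changed by -0.11 (95% interval -0.22 to -0.01). These changes exceed counting error if reads are independent, and the spread between cultures is unknown.

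Each arm was then compared between the libraries as the log2 ratio of its CPM, hypoxia over normoxia. For miR-96-5p this was -0.45 (-0.55 to -0.36), a level 0.730 times that in normoxia. miR-183-5p was at 0.15 (0.08 to 0.23) and miR-182-5p at 0.04 (-0.03 to 0.11). For miR-183-3p it was -0.08 (-0.45 to 0.29), for miR-96-3p -0.03 (-0.49 to 0.45) and for miR-182-3p 0.46 (-0.29 to 1.26). A difference was not detectable at this depth for any of the 3p arms.

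A rule of size was set for calling a miRNA higher or lower: it had to reach 0.9 or -0.9 on the log2 scale and to have a mean log2 CPM above 3. Of the 5 members, 4 had a mean log2 CPM above 3, and miR-182-3p did not. None of the 4 was higher and none was lower, at 0 calls in each direction. Over all 337 mature miRNAs above that level, 3.56% were higher and 3.26% lower, or 6.82% in both directions together, and 0 of 4 is not far from that share. No test or p-value is given, since there is 1 library per condition. miR-210, a miRNA known to be induced by low oxygen, rose by the same rule, from 954 to 2657 CPM, or 1.48 on the log2 scale (1.43 to 1.52).

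Intervals from counting are narrow at this depth, and most miRNAs differed between the libraries by more than counting error computed in this way. The interval excluded 0 for 63.5% of the 337 miRNAs. It lay below 0 for 26.7% of them, as for miR-96-5p, and above 0 for 36.8%, as for miR-183-5p. The log2 ratios of the 337 had a median of 0.08, quartiles of -0.23 and 0.39 and an SD of 0.52. miR-96-5p lay below the lower quartile, with 13.9% of the 337 at a lower value. miR-183-5p and miR-182-5p lay near the middle, with 55.2% and 45.1% at a lower value. The median log2 ratio of the 5 members was 0.04, with 3 above 0 and 2 below. One of the 3 was miR-182-3p, which is not among the 337, and of the other 4 members 2 were above 0 and 2 below. Of the 337, 59.3% were above 0 under total mature counts, and between 40.7% and 50.7% under the other 5 scalings named below.

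**Figure D3:**
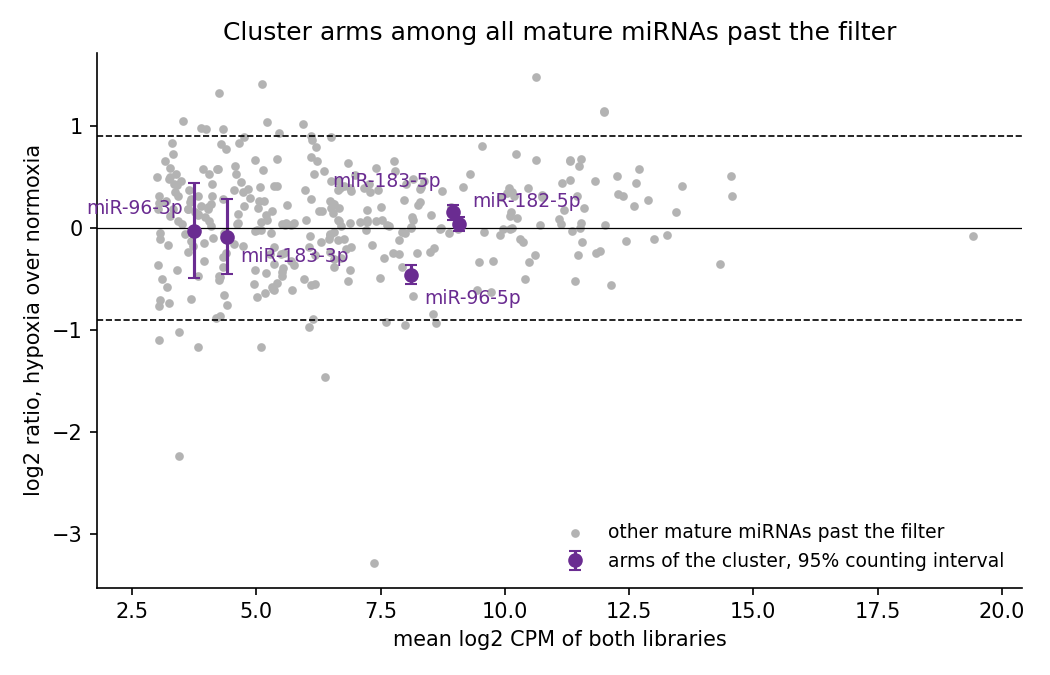
Log2 ratio of hypoxia over normoxia against the mean log2 CPM of both libraries, for the 337 mature miRNAs above a mean log2 CPM of 3. The 5 arms of the cluster above that level are marked with 95% counting intervals, and dashed lines mark 0.9 and -0.9. The arms of the cluster lie inside the dashed lines, with miR-96-5p lowest at -0.45.

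The sign of a small ratio depended on the scaling. miR-21-5p alone took 72.2% of mature counts in normoxia and 68.4% in hypoxia. With TMM in place of total counts, the median of the 337 log2 ratios moved by 0.11, with all counts of the table as the total it moved by 0.094, and without miR-21-5p in the totals by 0.19. The 6 scalings were total mature counts, TMM, the size factors of DESeq2, totals without the 10 most abundant miRNAs, totals without miR-21-5p and all counts of the table. miR-96-5p was below 0 in each, from -0.65 to -0.45. miR-183-3p (-0.28 to -0.08) and miR-96-3p (-0.22 to -0.03) were also below 0 in each, and miR-182-3p (0.26 to 0.46) above 0 in each. The counting intervals of these 3p arms include 0 under total counts. Each of the other scalings lowered every log2 ratio, so an arm below 0 under total mature counts was bound to stay below 0. For such arms, only the size of the ratio could change with the scaling. miR-183-5p was above 0 under 4 scalings and below 0 under 2, and miR-182-5p was above 0 only under total mature counts. No direction is therefore given for miR-183-5p or miR-182-5p. Relative to the median of the 337 miRNAs, miR-96-5p was at -0.53, miR-183-5p at 0.08 and miR-182-5p at -0.04.

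**Figure D4:**
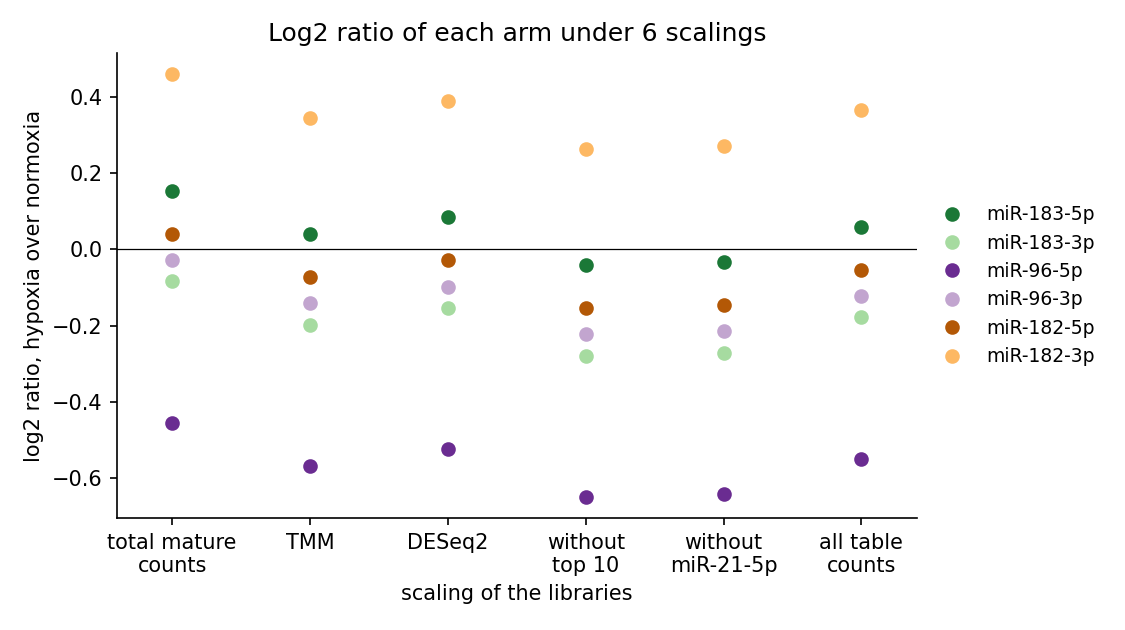
Log2 ratio of hypoxia over normoxia of each arm under 6 scalings of the libraries, a point per arm and scaling. miR-96-5p stays lowest, from -0.65 to -0.45, and miR-182-3p highest, from 0.26 to 0.46, while miR-183-5p and miR-182-5p lie on both sides of 0.

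All 3 hairpins gave mostly 5p reads. The 5p arm made up 99.1% of the reads of MIR182 in normoxia (98.7% to 99.5%) and 98.9% in hypoxia (98.5% to 99.1%). For MIR183 it was 95.5% (94.6% to 96.4%) and 96.2% (95.6% to 96.7%), and for MIR96 96.0% (94.9% to 96.9%) and 94.7% (93.7% to 95.6%). The intervals of the libraries overlapped for each hairpin, so a change in the use of the arms was not detectable. Of the 199 hairpins with both arms listed, 102 had more than 50% of their reads on the 5p arm in both libraries. The median 5p share was 64.8% in normoxia and 65.4% in hypoxia. miR-3120 had no counts in normoxia and is left out of the normoxia median.

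Within MIR96, the lower level in hypoxia was seen on the 5p arm, and the 3p arm had too few reads to show or exclude it. The ratio of miR-96-5p to miR-96-3p was 24.1 in normoxia (18.7 to 31.7) and 17.9 in hypoxia (14.8 to 21.8), a log2 change of -0.43 with an interval of -0.89 to 0.03. The interval includes both no difference between the arms and a difference as large as the ratio of miR-96-5p itself. For MIR183 the ratio of the arms was 21.5 and 25.3, and for MIR182 it was 115 and 86.1, also with intervals of the change that include 0.

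**Figure D5:**
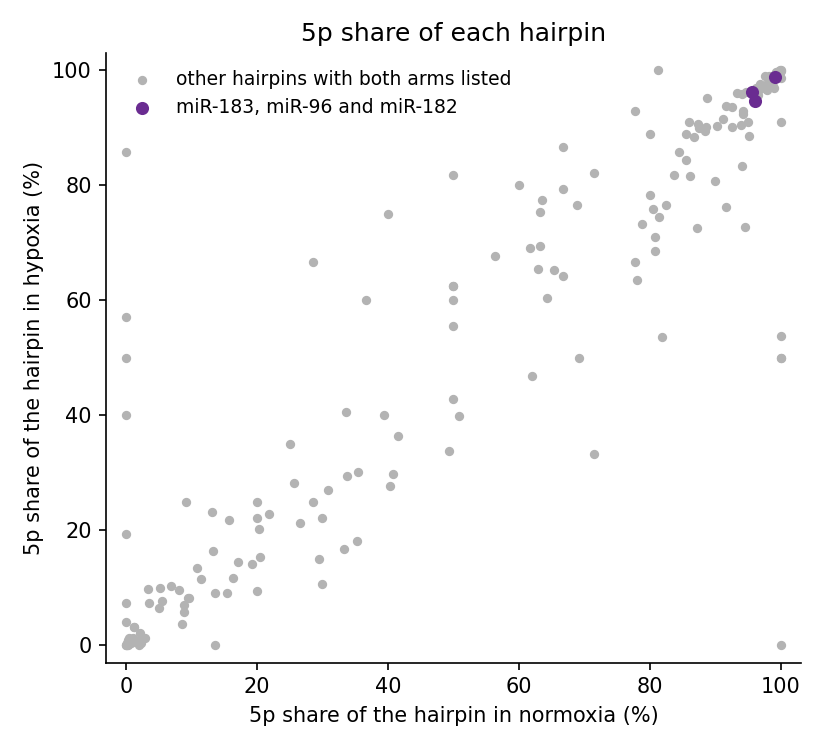
Share of the reads of a hairpin on its 5p arm in normoxia and in hypoxia, in percent, with a point for each of the hairpins with both arms listed and reads in both libraries. miR-183, miR-96 and miR-182 lie at the upper right, between 94.7% and 99.1% in both libraries.

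miR-1271-5p, which shares the seed of miR-96-5p, was rare in A549. It had 10 counts in normoxia (2.21 CPM) and 30 in hypoxia (3.49 CPM). Its log2 ratio of 0.66 had an interval of -0.42 to 1.85, so its direction was not detectable at this depth.

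A fixed list of miRNAs known to repress FOXO1 held miR-96-5p and miR-182-5p of the cluster itself, with miR-27a-3p and miR-27b-3p. miR-183-5p was not in it, and the list is not a complete one. Its values are partly those of the cluster given above. Of the 4, 0 passed the rule of size, against 6.82% of the 337 miRNAs in both directions together. The most abundant was miR-27b-3p, at 8483 CPM in normoxia and 7884 in hypoxia. Its level was well above that of miR-182-5p in both libraries, whereas miR-27a-3p was at 13.3 and 11.3 CPM, with an interval of its log2 ratio (-0.72 to 0.25) that includes 0. The median log2 ratio of the list was -0.17, against 0.08 over the 337 miRNAs. In the list, 3 log2 ratios were below 0 and 1 above under total mature counts, against 59.3% above 0 among the 337. The one above 0 was that of miR-182-5p. Under the other 5 scalings, at which miR-182-5p was also below 0, between 40.7% and 50.7% of the 337 were above 0.

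Unequal log2 ratios among miRNAs of a common cluster were also seen in other clusters. The 3 5p arms spanned 0.61 on the log2 scale. In the miR-106b~25 cluster, another set of 3 hairpins, the main arms spanned 0.85, from miR-106b-5p at -0.13 to miR-93-5p at 0.73. In the miR-17~92 cluster, miR-17-5p, miR-18a-5p, miR-19a-3p and miR-20a-5p spanned 0.42, from -0.55 to -0.14. With miR-19b-3p at 0.41 and miR-92a-3p at -0.07, which are also made from a related cluster on the X chromosome, the span was 0.96, and miR-19b-3p alone was above 0. Of the epithelial miR-200 family, the 3 main arms of the miR-200b locus (miR-200b-3p, miR-200a-3p and miR-429) spanned 0.37, and miR-200c-3p and miR-141-3p of the other locus lay 0.58 apart. Of these 14 miRNAs, 0 passed the rule of size, against 6.82% of the 337 in both directions together, and no test of the spans was possible with 1 library per condition.

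The miRNAs nearest to miR-182-5p in log2 CPM of both libraries were miR-101-3p, miR-449c-5p and miR-183-5p. miR-101-3p had 2442 and 4795 counts, miR-449c-5p 2404 and 4550. With 2 libraries, such nearness is a description of level.

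The markers fixed for a lung epithelial line were all listed, from miR-21-5p to miR-205-5p, which had 12 and 15 counts (2.66 and 1.74 CPM). Being listed takes few counts and does not show that a marker is abundant. Of the miR-200 family, known for epithelial cells, miR-200b-3p was at 880 CPM in normoxia and 1085 in hypoxia, miR-200c-3p at 24.1 and 24.8, and miR-141-3p at 37.2 and 25.5 (log2 ratio -0.55, -0.84 to -0.25). miR-21-5p was at 722090 and 683588 CPM, and miR-31-5p at 20199 and 28730. Markers of endothelial cells (2 of 2 listed) summed to 222 CPM in normoxia and 221 in hypoxia, those of mesenchymal cells (4 of 4) to 185 and 171, and those of haematopoietic cells (4 of 6) to 19.9 and 23.4. Their part in the levels of the cluster was not tested.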

How the data were processed

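Small RNA libraries of A549 cells were made from 2 µg of total RNA with a ligation-based kit for SOLiD, with 11 and 4 cycles of PCR. The deposited values are raw read counts for each small RNA, and the authors did not normalize them. Their methods name LifeScope and miRBase for small RNA data in general, and the submitters' processing notes name hg19. The sequences of the table carry 1 extra base at each end of the 6 arms. No source used here states whether reads had to lie within that window, so counts and arm shares may include reads with shifted ends. No entry of the table had fewer than 3 counts in total, and an unlisted miRNA may still have been read.

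CPM, shares and ratios were computed in Python version 3.11.15 with scipy version 1.17.1, scaled to mature miRNA counts. Hairpin positions came from GENCODE on GRCh38, and sequences from RefSeq (GRCh38.p14), which held 687 of the 859 names. TMM (edgeR version 4.0.16), DESeq2 version 1.42.0 size factors, other totals, thresholds, filters and a prior count of 2 were alternatives. The filter added 0.5 to each count before the log. Ratios, intervals and size calls were tested on simulated data with counting error only and a known scaling. That simulation could not test variation between cultures, PCR duplicates or the choice of scaling. miRNAs named were the arms, sharers of their seeds, miR-210, the nearest miRNAs in level and fixed lists. Members and lists were chosen with earlier results of these data known. Of the marker lists, those for neurons and sensory organs (52.1 CPM in normoxia and 54.0 in hypoxia, summed), muscle (0 and 2.09) and liver (0.886 and 0.465) were the others, and unlisted markers were not analysed here.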

Additional observations from a re-analysis of the deposited data

Results flagged for a closer look

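The table also holds an entry for each whole hairpin of the cluster, outside the mature arms used above. These entries were looked at because each exceeds 3 counts, the upper limit for an entry with no read. No control sample exists for them. The MIR183 entry had 23 counts in normoxia and 34 in hypoxia, or 1.02% and 0.721% of all reads on that hairpin. For MIR182 there were 7 and 29 counts, or 0.286% (exact interval 0.115% to 0.589%) and 0.602% (0.403% to 0.863%). The MIR96 entry had 4 and 6 counts. The intervals of the libraries overlapped for each hairpin. Which part of the hairpin these reads cover was not analysed here.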

How the results depend on the processing

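No paired analysis was possible because the study made a single library for normoxia and a single library for hypoxia. Leaving out a library would leave no comparison. All arms of the cluster were listed, so giving an unlisted arm 3 counts was not run. The number of members past the rule of size was 0 in each direction under every scaling, threshold, filter and prior count tried, each changed alone. The threshold at a 1.5-fold ratio was run only with total counts. miR-96-5p, at -0.65 without the 10 most abundant miRNAs and -0.64 without miR-21-5p, lies beyond that threshold under these scalings. Depth limits the 3p arms, whose ratios have wide intervals.

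Scaling moved the log2 ratios by a constant. For miR-183-5p it was 0.040 with TMM, -0.042 without the 10 most abundant miRNAs, -0.033 without miR-21-5p, 0.060 with all counts in the table and 0.076 when centred on the median of the 337 miRNAs, against 0.15. For miR-182-5p these were -0.073, -0.15, -0.15, -0.053 and -0.037, against 0.041. miR-96-5p was at -0.57 with TMM, -0.65 without the 10 most abundant and -0.64 without miR-21-5p, against -0.45. The cluster sum was at -0.13 with TMM, -0.091 with DESeq2 size factors, -0.22 without the 10 most abundant, -0.21 without miR-21-5p, -0.11 with all counts, -0.10 when centred, and 0.041 as the median of the members, against -0.02.

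The median of the FOXO1 list was -0.29 with TMM, -0.37 without the 10 most abundant, -0.36 without miR-21-5p and -0.27 with all counts. For the miR-200 clusters it was -0.16 without the 10 most abundant and -0.15 without miR-21-5p, against 0.04. For miR-106b~25 it was 0.087 with TMM, 0.13 with DESeq2, 0.0055 without the 10 most abundant, 0.014 without miR-21-5p, 0.11 with all counts and 0.12 when centred, against 0.20. For miR-17~92 it was -0.25, -0.21, -0.33, -0.32, -0.23 and -0.22 in the same order, against -0.14.

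Of all mature miRNAs, 12 were higher and 11 lower under total counts (52.2% higher), 8 and 15 with TMM (34.8%), 10 and 15 with DESeq2 (40.0%), 5 and 19 without the 10 most abundant and 5 and 18 without miR-21-5p. A threshold at a 1.5-fold ratio gave 38 and 29, a log2 threshold of 1 gave 8 and 7, no filter 149 and 117, and a mean CPM of at least 20 gave 9 and 7.

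Taken over every count in the table, the share of the cluster was 0.0960% in normoxia and 0.0887% in hypoxia. From 5p arms only it was 0.133% and 0.131%. Without miR-96-3p, MIR96 took 17.7% of the cluster in hypoxia. Over the hairpins with at least 200 counts, the median 5p share was 80.7% in normoxia and 76.5% in hypoxia. These shifts follow from the denominators, thresholds or arms used. The centring, the sum and shares without miR-96-3p, the addition of hairpin entries and the minimum of 200 counts were chosen after seeing the data.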
